A study of Mus musculus with 2 samples.

Results

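Long noncoding RNAs that stay in the nucleus make up a sizeable part of what single-nucleus RNA sequencing counts in neurons. A set of 9 such RNAs was examined in sorted nuclei of the mouse olfactory bulb: Meg3, Rian, Malat1, Miat, Snhg11, Snhg14, Rmst, Dlx6os1 and 6530403H02Rik. They were chosen by their measured shares of UMIs in these same libraries and by how those shares differed between nuclei, so the values below describe them and carry no test. Of the 9, 7 matched a row of the count tables, which hold 31055 genes. Rian and Snhg14 matched no row by symbol or by identifier and were not analysed here; both have the GENCODE type processed_transcript, of which 10 of 790 genes matched a row, against 5459 of 5854 lincRNA genes.

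A long noncoding RNA is transcribed like a messenger RNA but is not translated into a known protein, and many are kept at chromatin or in nuclear bodies. Malat1 is an RNA of nuclear speckles, Meg3 is the maternally expressed RNA of the imprinted Dlk1-Dio3 region, and Snhg11 hosts a small nucleolar RNA. Miat forms its own nuclear domains in neurons, Dlx6os1 (Evf2) lies opposite the homeobox gene Dlx6 and takes part in the control of Dlx genes in forebrain interneurons, and Rmst is known from neural progenitors, where it binds SOX2.

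The nuclei came from olfactory bulbs of adult wild-type mice whose projection neurons had been labelled from their targets. A retrograde adeno-associated virus, retroAAV-CAG-H2B-GFP, had carried a nuclear green fluorescent protein under the general CAG promoter into the anterior olfactory nucleus (AON) or the posterior piriform cortex (pPCx), and fluorescent nuclei were sorted and sequenced with 10x Genomics 3 prime chemistry. There was 1 library per injection site, the pPCx one from 1 female mouse by the study's methods, so a difference between the libraries cannot be told apart from a difference between the mice, the sorts or the sequencing runs. Xist, the RNA of the silenced X chromosome, had 2 UMIs in the 102 AON nuclei and 1782 UMIs in the 63 pPCx nuclei, so the libraries also differed in this sex-linked RNA. A difference in the sex of the mice can therefore not be told apart from one between the injection sites either.

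Nuclei with at least 1000 genes were kept, 102 of 188 barcodes in the AON library and 63 of 74 in the pPCx library; the deposited totals were 2963064 and 2412067 UMIs, and the libraries shared 0 barcodes. A nucleus was called a projection neuron when Slc17a7, Slc17a6, Tbx21 and Cdhr1, genes of glutamate transport and of mitral and tufted cells, together had more UMIs than Gad1, Gad2 and Slc32a1, genes of GABA synthesis and transport. It was called GABAergic in the reverse case with at least 3 UMIs of the GABA genes. The AON library held 25 projection neuron, 47 GABAergic and 30 remaining nuclei, and the pPCx library held 59, 2 and 2. The 5 GABAergic markers, which overlap the genes of the rule, summed to 64.4 counts per 1000000 UMIs (CPM) in AON projection neurons and 5554 CPM in GABAergic nuclei, and the projection neuron markers to 563 and 8.65 CPM; 8 of the 25 AON projection neurons had under 3 UMIs of the rule's 4 projection genes. Of the 30 remaining AON nuclei, 18 had astrocyte markers and 9 had oligodendrocyte markers. Of the neuron markers, the synaptic genes Syt1 and Snap25 were at 47.8 and 62.4 CPM in the astrocyte-marker nuclei, against 4764 and 1385 CPM in AON projection neurons and 3394 and 1595 CPM in GABAergic nuclei. Rbfox3 and Stmn2 did not mark both neuron classes. Rbfox3 was at 9.84 CPM in AON projection neurons, 638 CPM in GABAergic nuclei and 0 CPM in astrocyte-marker nuclei. Stmn2 was at 137, 15.7 and 11.0 CPM in the same groups. The median depth was 38129 UMIs in AON projection neurons, 26129 in AON GABAergic nuclei, 14348 in the astrocyte-marker nuclei and 34306 in pPCx projection neurons.

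The class rule let in 3 AON nuclei that stood apart. Each had 1 UMI of the projection neuron genes, and their UMIs of the 6 astrocyte markers were 162, 21 and 258. Over the other 22 AON projection neurons the same markers summed to 151 CPM, against 277 CPM in pPCx projection neurons and 15590.4 CPM in the astrocyte-marker nuclei. The second of the 3 nuclei also held 21 UMIs of oligodendrocyte markers. It held 27 UMIs of olfactory ensheathing cell markers as well, and the other two nuclei held 0. The main results on AON projection neurons are given with and without these 3 nuclei.

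Among the astrocyte-marker and oligodendrocyte-marker nuclei of the AON library, 2 carried mixed markers, with more UMIs of the 5 GABAergic markers than of glial markers. One of the astrocyte-marker nuclei held 47 UMIs of GABAergic and 7 of astrocyte markers, and one of the oligodendrocyte-marker nuclei held 35 of GABAergic, 4 of oligodendrocyte and 1 of astrocyte markers. Both stayed in their sets, and the main values they carry are given without them too. The 3 AON nuclei with neither glial marker set were not part of this check. Together they held 96 UMIs of GABAergic, 1 of astrocyte and 1 of oligodendrocyte markers.

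The promoters are shown for the pair of RNAs that varied together and for the RNA with the sharpest class difference. RefSeq lists them on GRCm38.p6 as 250 bases before and 50 bases after the start site, and capitals mark 3 searched motifs, the cAMP response element TGACGTCA, the TATA box TATAAA and the homeodomain core TAATTA, on both strands.

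Meg3, chr12:109540746-109541045, plus strand: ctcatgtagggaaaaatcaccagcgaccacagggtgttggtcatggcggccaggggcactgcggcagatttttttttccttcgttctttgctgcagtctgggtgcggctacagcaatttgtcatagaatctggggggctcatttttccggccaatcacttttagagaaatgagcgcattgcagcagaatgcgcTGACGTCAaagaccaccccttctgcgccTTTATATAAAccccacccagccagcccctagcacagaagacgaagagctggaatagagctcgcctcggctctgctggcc

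Snhg11, chr2:158375463-158375762, plus strand: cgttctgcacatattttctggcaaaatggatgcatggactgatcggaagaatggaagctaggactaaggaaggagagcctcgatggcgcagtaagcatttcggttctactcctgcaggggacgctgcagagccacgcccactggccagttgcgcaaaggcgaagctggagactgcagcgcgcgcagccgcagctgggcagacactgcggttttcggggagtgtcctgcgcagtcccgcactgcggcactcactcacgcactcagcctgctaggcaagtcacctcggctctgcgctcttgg

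Dlx6os1, chr6:6869484-6869783, minus strand: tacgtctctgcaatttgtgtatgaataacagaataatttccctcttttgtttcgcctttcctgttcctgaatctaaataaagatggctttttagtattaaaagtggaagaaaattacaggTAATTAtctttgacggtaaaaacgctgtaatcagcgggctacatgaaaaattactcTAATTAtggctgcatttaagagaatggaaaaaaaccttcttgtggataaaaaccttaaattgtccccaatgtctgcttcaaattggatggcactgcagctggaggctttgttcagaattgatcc

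The Meg3 promoter held TGACGTCA at position -57 from the start site, a motif in 1.79% of the 32851 RefSeq promoters of this length, and TATAAA on either strand at -29 and -25, in 13.6% of them. The Dlx6os1 promoter held TAATTA at -130 and -74, found in 5.29%. RefSeq lists a second start site for both genes, whose windows are not printed: that of Dlx6os1 held TAATTA at -174 and TATAAA at -86 and -30, and that of Meg3 held none of the 3 motifs. The Snhg11 window held none of the 3 motifs, nor CACGTG, the E-box, present in 7.15%. These matches describe the letters only.

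Meg3 and Rmst are also hosts of microRNAs, whose own levels these libraries do not measure. Mature sequences are given for 1 microRNA of each host, with the seed, bases 2 to 8, in capitals.

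mmu-miR-770-5p, in an exon of Meg3, chr12:109563710-109563731: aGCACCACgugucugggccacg

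mmu-miR-135a-5p, in an intron of Rmst, chr10:92072141-92072163: uAUGGCUUuuuauuccuauguga

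Together the 7 RNAs took 5.47% of all UMIs in AON projection neurons (per nucleus: lowest 1.66%, median 5.23%, highest 9.04%). Their summed share was 5.46% in AON GABAergic nuclei and 7.54% in pPCx projection neurons. It was highest in the nuclei outside both neuron classes, at 9.89% of AON UMIs there. Malat1 set most of these shares. Without Malat1, the other 6 RNAs took 1.53% of UMIs in AON projection neurons, 2.15% in pPCx projection neurons, 0.626% in AON GABAergic nuclei and 0.0684% in the remaining AON nuclei. Of the 328 UMIs behind the last share, 170 came from the 3 nuclei with neither glial marker set, where it was 0.727%. Without the mixed-marker nuclei it was 0.0402% in astrocyte-marker and 0.00113% in oligodendrocyte-marker nuclei.

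Malat1 (ENSMUSG00000092341, chr19:5795690-5802672, minus strand, annotated as a lincRNA of 6.983 kb without introns) had more UMIs than any other gene in the projection, GABAergic and remaining nuclei of the AON library and in pPCx projection neurons. It was found in every kept nucleus. Its share of UMIs in AON projection neurons was 3.94% (lowest 0.701%, median 3.41%, highest 9.04%), and in AON GABAergic nuclei 4.83% (2.52%, 4.79% and 9.77%). These ranges overlapped widely, with 7 of 25 projection neurons above the GABAergic median. Glial nuclei were higher: the share was 7.60% (4.96%, 7.14% and 12.2%) in the 18 astrocyte-marker nuclei and 13.5% (5.51%, 13.6% and 18.6%) in the 9 oligodendrocyte-marker nuclei.

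The label of neuronal RNAs did not hold for Malat1 in this respect. Summed over nuclei, its CPM was 1.93 times higher in astrocyte-marker nuclei than in AON projection neurons (95% interval 1.90 to 1.96), and 1.78 times higher in oligodendrocyte-marker than in astrocyte-marker nuclei (1.75 to 1.81). Without the mixed-marker nuclei these were 1.90 and 1.85 times. Intervals of shares, CPM and ratios cover counting error only, since each library is 1 sample. The 3 glial-marker nuclei in the projection class had Malat1 shares of 8.25% to 9.04%, above the highest of the other 22 projection neurons, 6.53%. Without them the AON projection share was 3.79% with a median of 2.81%.

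Meg3 (ENSMUSG00000021268, chr12:109541001-109571726, plus strand, lincRNA) was high in projection neurons, lower in GABAergic nuclei and near 0 in glia. In AON projection neurons it took 1.01% of UMIs (lowest 0%, median 0.912%, highest 1.71%), and in AON GABAergic nuclei 0.360% (0.0553%, 0.317% and 1.26%). In astrocyte-marker nuclei it took 0.00771%, with 14 of 18 nuclei at 0. The mixed-marker nucleus held 17 of the 21 Meg3 UMIs there; without it the share was 0.00153%. The 3 projection-class nuclei without Meg3 were the 3 glial-marker nuclei.

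The neuron classes overlapped at their edges. Of the 25 AON projection neurons, 22 lay above the GABAergic median and 1 lay above the highest GABAergic nucleus. That GABAergic nucleus, at 1.26%, stood apart from an upper quartile of 0.445% for its class. It held 530 of the 4574 Meg3 UMIs and 3 of the 6 Miat UMIs of the class. Whether it was a mixture of nuclei was not tested. With the glial-marker nuclei left out, 36 of 47 GABAergic nuclei lay below the lowest projection neuron. The summed CPM was 2.81-fold higher in projection neurons than in GABAergic nuclei (2.71 to 2.91), and 2.90-fold higher without the 3 glial-marker nuclei. It was 131-fold higher in projection neurons than in astrocyte-marker nuclei (85.7 to 212) and 46.6-fold higher in GABAergic than in astrocyte-marker nuclei (30.5 to 75.4). Without the mixed-marker nucleus, which left 4 Meg3 UMIs in the other 17 astrocyte-marker nuclei, these folds were 659.8 (258 to 2422) and 235 (91.7 to 862). The deepest AON projection nucleus supplied 29.1% of the Meg3 UMIs of its class. It held 274993 UMIs, 24.6% of all UMIs of the class, where the median nucleus held 38129. Summed values of this class lean on it to that extent.

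Snhg11 (ENSMUSG00000044349, chr2:158375638-158386145, plus strand, typed protein_coding in GENCODE M21 although named as a small nucleolar RNA host) followed the same order. Its share was 0.512% in AON projection neurons (lowest 0%, median 0.495%, highest 0.768%), 0.192% in GABAergic nuclei (0.0314%, 0.163% and 0.692%) and 0.00551% in astrocyte-marker nuclei. Of the 15 UMIs in the last group 13 came from the mixed-marker nucleus, without which the share was 0.000766%. Here too 22 of 25 projection neurons exceeded the GABAergic median, and 2 exceeded every GABAergic nucleus. The summed CPM was 2.67-fold higher in projection neurons than in GABAergic nuclei (2.54 to 2.80), or 2.75-fold without the 3 glial-marker nuclei.

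**Figure D1:**
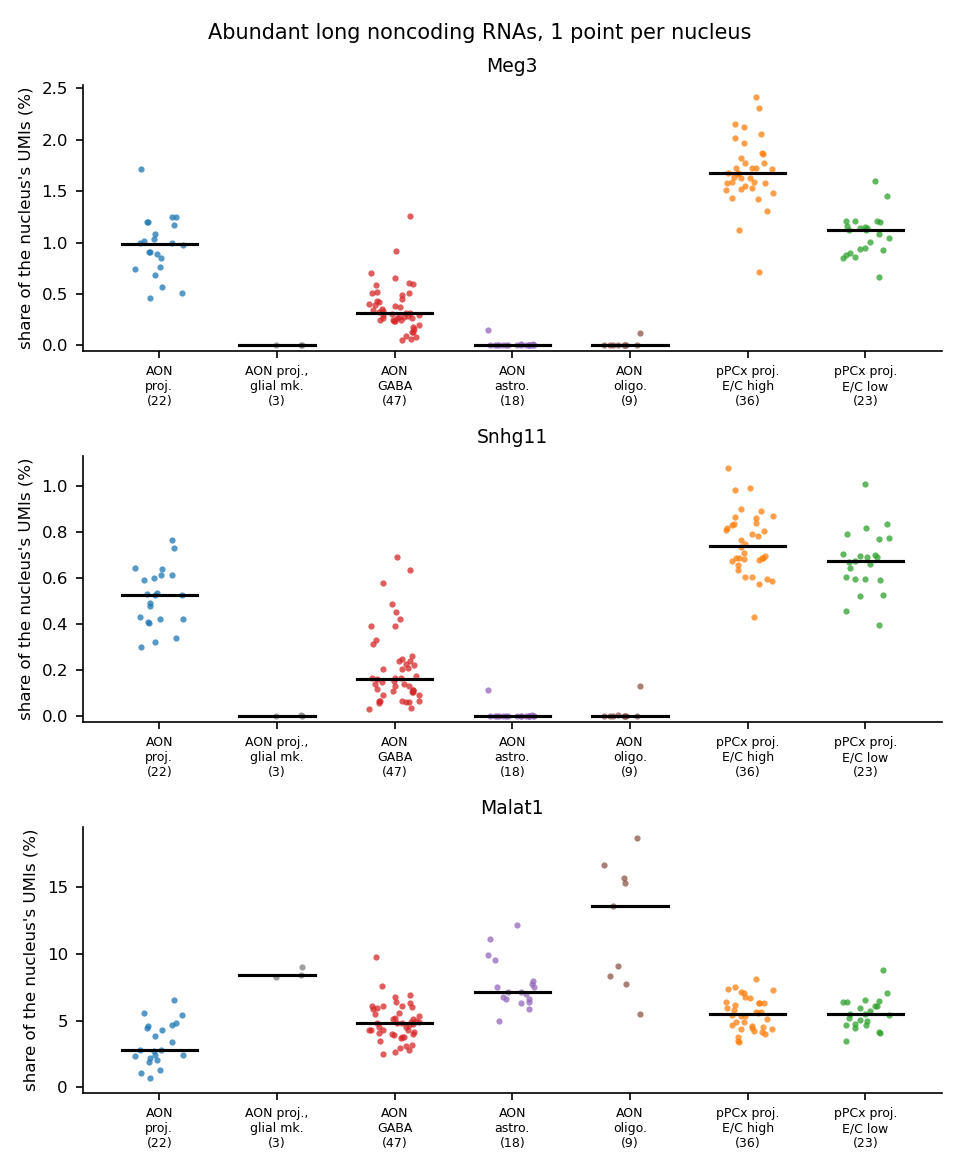
Share of each nucleus's UMIs (%, linear axis) taken by Meg3, Snhg11 and Malat1; each point is a nucleus, black lines are medians, and the number of nuclei stands under each group (E/C, Ebf1 plus Cntn6; glial mk., projection-class nuclei with glial markers). Meg3 medians run from 0% in glial groups to 1.67% in Ebf1/Cntn6-high pPCx projection neurons, while the highest Malat1 median, 13.6%, is that of oligodendrocyte-marker nuclei.

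Set per kilobase of exon sequence, Meg3 and Snhg11 were at almost the same level: 559 and 600.3 CPM per kb in AON projection neurons, 199 and 225 in AON GABAergic nuclei and 784 and 820 in pPCx projection neurons. Malat1 stood at 5642 CPM per kb in AON projection neurons. Miat was at 10.7 CPM per kb there, and 6530403H02Rik, Rmst and Dlx6os1 were at 1.34, 0.844 and 0.346. The chemistry tags RNA at its 3 prime end, so these per-length levels assume that UMIs grow with length, which was not tested.

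Over the 160 kept nuclei of both libraries with at least 5000 UMIs, Snhg11 was the gene most like Meg3 among 2979 genes, with a Pearson r of 0.95 on log2(UMIs per 10000 + 1), and Meg3 was the gene most like Snhg11. The nuclei share libraries, depth ranges and class composition, so this is a description. Within classes the shares were less alike: r was 0.44 over the 59 pPCx projection neurons, 0.42 over the 47 AON GABAergic nuclei and 0.52 over the 25 AON projection neurons. In the last set the value rested on the 3 glial-marker nuclei, where both shares are at or near 0: without them r was -0.29 over 22 nuclei. Over the 15 of these with at least 10000 UMIs r was -0.05, so the negative value rested on the shallower nuclei. The quotient of summed Meg3 to Snhg11 UMIs was 1.98 in AON projection neurons, 1.88 in AON GABAergic nuclei and 2.03 in pPCx projection neurons. It was not constant: it was 2.375 in the remaining AON nuclei and 3.17 in the 2 pPCx GABAergic nuclei. It also differed between the sets of pPCx projection neurons described below. Among single nuclei the quotient ran from 0.89 to 5.67 in AON projection neurons, with a median of 1.75, and from 0.22 to 12.9 in GABAergic nuclei, with a median of 1.76.

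**Figure D2:**
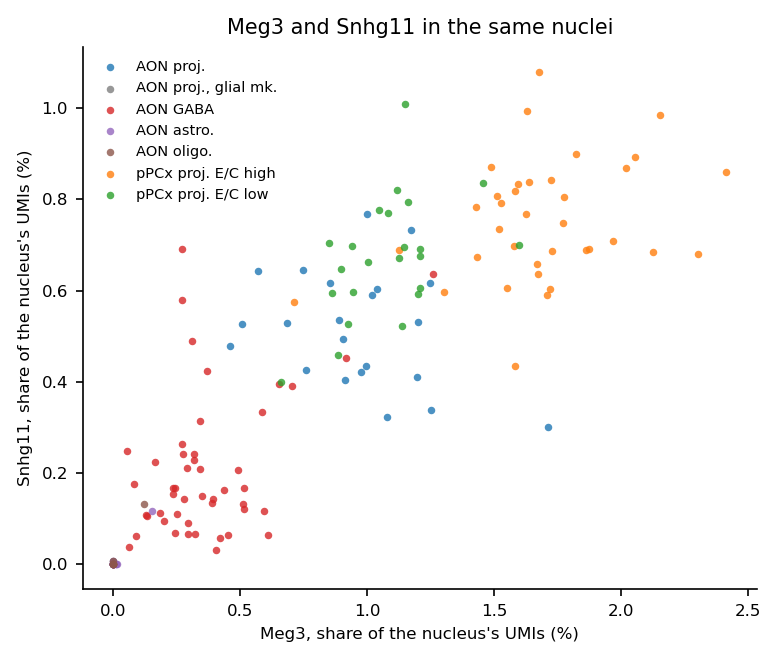
Snhg11 share against Meg3 share of the same nucleus's UMIs (%, both axes linear), 1 point per nucleus and a colour per group. Glial groups sit near the origin, most GABAergic nuclei next to them, and projection neurons of both libraries to the upper right; GABAergic and projection nuclei overlap in Snhg11 up to 0.692%.

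Miat (ENSMUSG00000097767, chr5:112213228-112229395, minus strand, lincRNA) was rare and mostly found in projection neurons. It had 111 UMIs in AON projection neurons, 6 in AON GABAergic nuclei and 0 in the astrocyte-marker and oligodendrocyte-marker nuclei; 1 of the 3 AON nuclei with neither marker set held 3 UMIs. Per nucleus, projection neurons ran from 0 to 651 CPM with a median of 19.7, and GABAergic nuclei from 0 to 71.4 CPM with a median of 0. A UMI of Miat was seen in 15 of 25 projection neurons and in 4 of 47 GABAergic nuclei; 9 projection neurons lay above the highest GABAergic nucleus. The summed CPM was 21.0-fold higher in projection neurons (9.37 to 58.6), or 21.7-fold without the glial-marker nuclei. Against astrocyte-marker nuclei, set at the floor of 3 UMIs over the group, it was at least 9.01-fold higher, or at least 8.64-fold without the mixed-marker nucleus.

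The Miat detection rates depended on depth. With every nucleus thinned to 5000 UMIs, which left out 3 of 25 AON projection neurons, Miat was seen in 31.8% of those projection neurons (95% Clopper-Pearson interval 13.9% to 54.9%) and in 2.13% of GABAergic nuclei (0.0539% to 11.3%), against 60% and 8.51% before thinning. The deepest nucleus held 41 of the 111 UMIs.

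Dlx6os1 (ENSMUSG00000090063, chr6:6820189-6871592, minus strand, antisense to Dlx6) was found mostly in GABAergic nuclei. In the AON library 46 of 47 GABAergic nuclei held it, with 811 UMIs in all and a per-nucleus range of 0 to 3159 CPM around a median of 484. Among the 25 AON projection neurons 2 held 1 UMI each, at up to 12.8 CPM, and 46 GABAergic nuclei were above every projection neuron. The 30 remaining AON nuclei held 10 UMIs, 8 of them in 1 nucleus. The summed CPM was 356-fold higher in GABAergic nuclei (98.4 to 2948). In the pPCx library Dlx6os1 was seen in 0 of 59 projection neurons, which at a floor of 3 nuclei allows up to 5.08% of nuclei with a UMI, and both GABAergic nuclei held it, with 8 UMIs between them. Thinned to 5000 UMIs, 83.0% of AON GABAergic nuclei kept a UMI. The gene most like it over nuclei was Gad1, which makes GABA, with r of 0.82, and Gad1 also entered the class rule.

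Rmst (ENSMUSG00000112117, chr10:92071037-92165170, minus strand, lincRNA) did not follow the neuron and glia divide, and the label of a neuronal RNA did not hold for it either. It had 99 UMIs in 12 of 18 astrocyte-marker nuclei, with a median of 160 and a highest value of 1616 CPM, and 0 UMIs in the 9 oligodendrocyte-marker nuclei. AON GABAergic nuclei had 126 UMIs, carried by 17 of 47 nuclei at up to 969 CPM. Summed CPM was 364 in astrocyte-marker nuclei and 99.1 in GABAergic nuclei, a 3.67-fold difference (2.79 to 4.81), or 3.83-fold without the mixed-marker nucleus. Against oligodendrocyte-marker nuclei, at a floor of 3 UMIs over the group, astrocyte-marker nuclei were at least 22.3-fold higher.

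In the AON projection class Rmst had 7 UMIs, all of them in 2 of the 3 glial-marker nuclei. With those nuclei counted, GABAergic nuclei were 15.8-fold higher than projection neurons (7.46 to 40.2). Without them the 22 AON projection neurons held 0 UMIs of Rmst, and GABAergic nuclei were at least 35.8-fold higher, at the same floor.

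6530403H02Rik (ENSMUSG00000098097, chr3:120604109-120886733, minus strand, lincRNA) was close to undetected in the AON library. It had 6 UMIs in 4 of 25 AON projection neurons, 4 UMIs in 4 of 47 GABAergic nuclei and 0 UMIs in the 30 remaining nuclei. In pPCx projection neurons it had 384 UMIs in 39 of 59 nuclei, with a median of 59.0 and a highest value of 653 CPM, and 32 of these nuclei lay above the highest AON projection neuron.

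**Figure D3:**
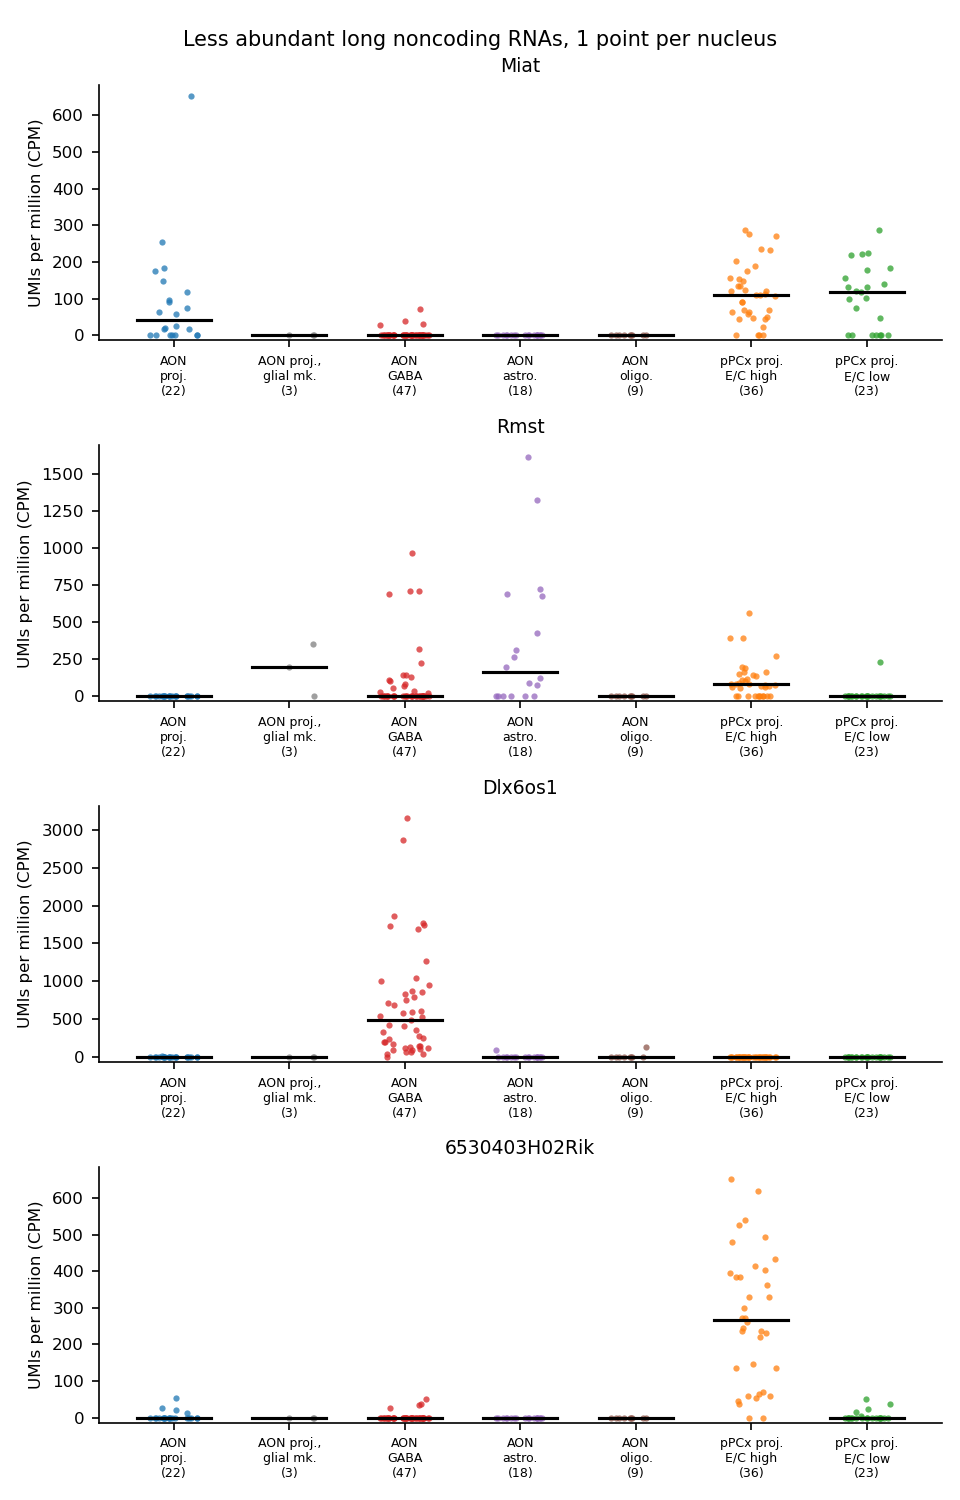
CPM per nucleus (linear axes, each with its own scale) for Miat, Rmst, Dlx6os1 and 6530403H02Rik in the same groups; points are nuclei, black lines medians, numbers of nuclei in parentheses. Dlx6os1 is high in GABAergic nuclei with a median of 484 CPM, Rmst in some GABAergic, astrocyte-marker and Ebf1/Cntn6-high nuclei, and 6530403H02Rik in Ebf1/Cntn6-high pPCx projection neurons.

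Between the classes of the AON library, 3 of the 7 RNAs (Meg3, Miat and Snhg11) were at least 2-fold higher in projection neurons, where 16.5% of the 12272 genes with at least 10 UMIs were, and 2 of 7 (Rmst and Dlx6os1) were at least 2-fold lower, against 16.8% of genes. The median log2 ratio was 0.72 for the 7 RNAs and -0.05 for all genes. Because this contrast entered the choice of the RNAs, nothing is read from these counts.

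Between the libraries, projection neurons of the pPCx library carried more of the abundant members. The Meg3 share was 1.42% there (lowest 0.662%, median 1.52%, highest 2.42%), Snhg11 took 0.699% (0.399%, 0.697% and 1.08%) and Malat1 5.39% (3.42%, 5.47% and 8.78%). The ranges overlapped: 15 of 59 pPCx nuclei had more Meg3 than any AON projection neuron, and 23 had more Snhg11. The highest AON Meg3 share came from 1 shallow nucleus, with 85 Meg3 UMIs of 4967. The upper quartile of the AON Meg3 share was 1.08%, and 53 of the 59 pPCx nuclei lay above the AON median. The summed CPM was 1.40-fold higher in the pPCx library for Meg3 (1.37 to 1.43), 1.37-fold for Snhg11 and 1.37-fold for Malat1; without the glial-marker nuclei these were 1.36-fold, 1.32-fold and 1.42-fold. These differences hold for 2 libraries, each from 1 injection site.

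Miat differed less, with 126 CPM in pPCx and 99.3 CPM in AON projection neurons, a ratio of 1.27 (1.02 to 1.60), and 1.23 (0.987 to 1.55) without the glial-marker nuclei. Rmst and 6530403H02Rik differed most. Rmst had 149 UMIs in 26 of 59 pPCx projection neurons and was 10.2-fold higher there than in AON projection neurons (4.84 to 25.8), or at least 23.1-fold higher without the glial-marker nuclei. 6530403H02Rik was 30.7-fold higher (13.98 to 84.22), or 29.8-fold without them. Of the 6 members with at least 10 UMIs, 0 were at least 2-fold higher in AON than in pPCx projection neurons, where 8.51% of 13677 genes were, and these 2 were at least 2-fold lower, against 12.4% of genes.

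**Figure D4:**
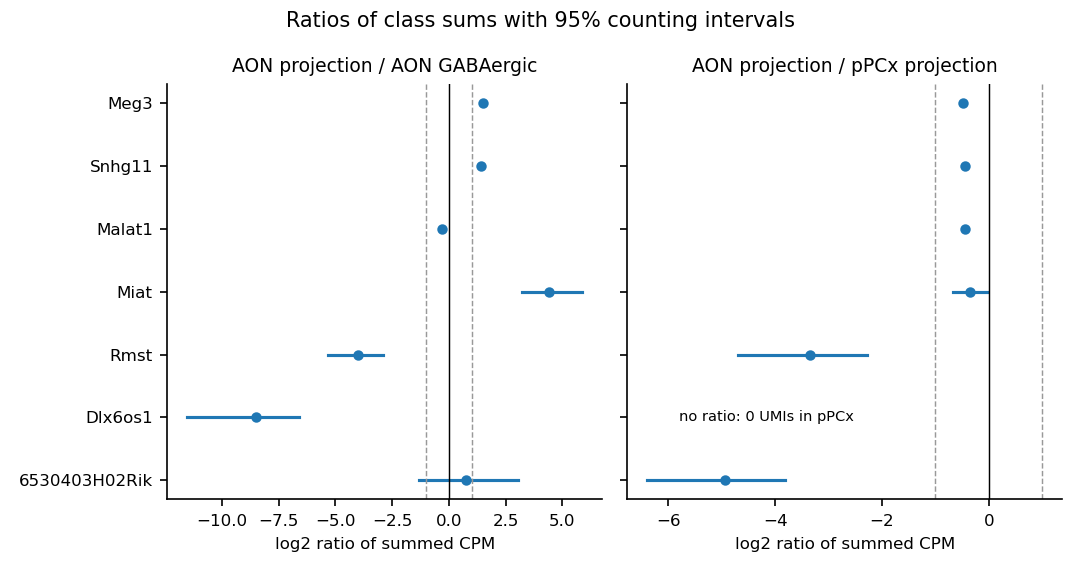
log2 ratio of summed CPM for each RNA between AON projection and AON GABAergic nuclei (left) and between AON and pPCx projection neurons (right); points are ratios, horizontal lines 95% intervals for counting error, and dashed lines mark 2-fold. On the left Miat, Meg3 and Snhg11 lie to the right of 2-fold and Rmst and Dlx6os1 to the left; on the right Rmst and 6530403H02Rik lie to the left, and Dlx6os1 has no ratio.

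The pPCx projection neurons were themselves of more than one kind. Ebf1, a transcription factor, and Cntn6, a contactin of the cell surface, were the 2 genes most like 6530403H02Rik over nuclei, with r of 0.82 and 0.85, and their summed UMIs split the 59 nuclei into 36 with at least 20 per 10000 UMIs and 23 below. Since the split rests on the genes most like 6530403H02Rik, its own difference between the sets is a description and not a separate finding. The nuclei nearest to the split held 21.7 and 14.3 per 10000, and the next one below held 1.00. None of the 25 AON projection neurons reached it: 17 held 0, and the highest held 10.96 per 10000.

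6530403H02Rik and Rmst were found almost entirely in the high set. 6530403H02Rik had 378 UMIs in 34 of the 36 high nuclei and 6 UMIs in 5 of the 23 low nuclei, at up to 653 and 50.7 CPM; 32 high nuclei exceeded every low nucleus. The summed CPM was 293 against 5.78, a 50.6-fold difference (23.0 to 139). Thinned to 5000 UMIs, it was seen in 77.8% of high and 4.35% of low nuclei. Rmst had 147 UMIs in 25 high nuclei and 2 UMIs in 1 low nucleus, a ratio of 59.1 (16.1 to 492), and 11 high nuclei held none.

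Meg3 differed between the sets to a smaller degree. Its share was 1.68% in high nuclei (lowest 0.711%, median 1.67%, highest 2.42%) and 1.09% in low nuclei (0.662%, 1.12% and 1.60%). Of the 36 high nuclei 35 exceeded the low median, and 22 exceeded the highest low nucleus; the summed CPM was 1.53-fold higher (1.497 to 1.567). Snhg11 was 1.13-fold higher in high nuclei (1.10 to 1.17), so that the quotient of Meg3 to Snhg11 was 2.28 in high and 1.68 in low nuclei. The summed CPM of Malat1 was 1.06-fold higher in low nuclei (1.05 to 1.07), but the shares of single nuclei showed no such shift. The median Malat1 share was 5.51% in high and 5.47% in low nuclei, and the mean share was 5.54% in both sets. Of the 36 high nuclei, 18 lay above the low median for Malat1. Miat did not differ beyond its counting interval, at 0.86-fold in high against low nuclei (0.68 to 1.09). Of 6 members tested, 2 (Rmst and 6530403H02Rik) were at least 2-fold higher in high nuclei, where 11.9% of 12331 genes were, and 0 were at least 2-fold lower, against 6.97%.

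The astrocyte markers moved with the split too. Their summed level was 369 CPM in high nuclei (70.9 to 670 per nucleus) and 162 CPM in low nuclei (0 to 663), with 6 of 6 and 5 of 6 markers above 0. The ranges overlapped, and the level in astrocyte-marker nuclei was 15590.4 CPM. Whether this had a part in the Rmst difference was not tested.

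Set against the low pPCx nuclei alone, AON projection neurons were close in several members. 6530403H02Rik was at 5.37 CPM in the AON and 5.78 CPM in the low pPCx nuclei, a ratio of 0.928 (0.248 to 3.47), and Meg3 at 10108.6 and 10948.9 CPM, a ratio of 0.923 (0.899 to 0.948). Rmst, without the glial-marker nuclei, was at 0 and 2 UMIs. Snhg11, Miat and Malat1 were lower in the AON nuclei, at ratios of 0.786 (0.759 to 0.814), 0.726 (0.561 to 0.937) and 0.708 (0.699 to 0.717).

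**Figure D5:**
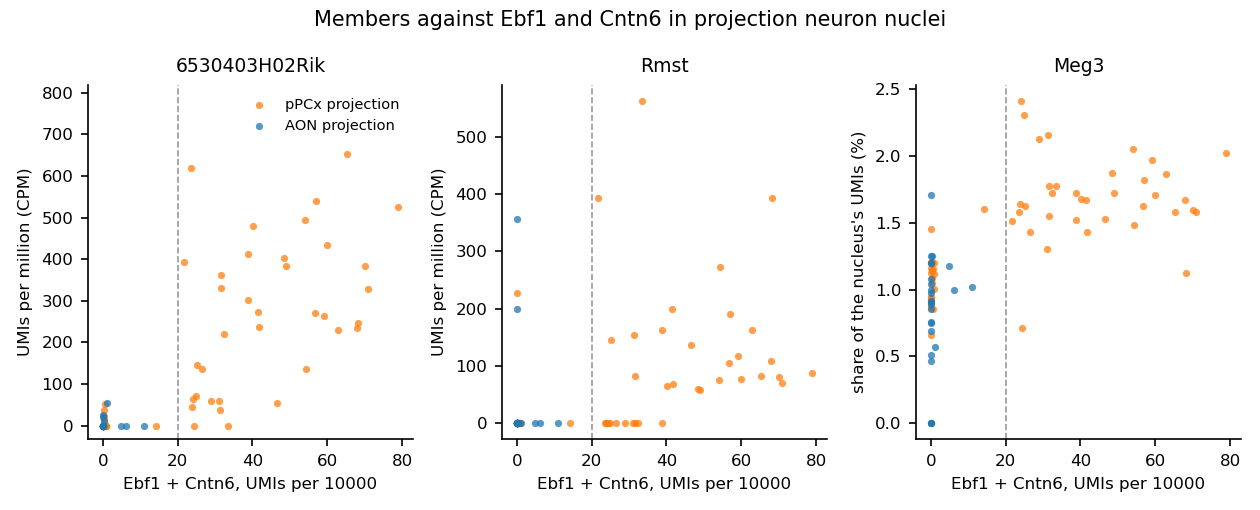
CPM of 6530403H02Rik and Rmst, and Meg3 share of UMIs (%), against summed Ebf1 and Cntn6 UMIs per 10000 in projection neuron nuclei of both libraries (linear axes, 1 point per nucleus); the dashed line is the split at 20. AON nuclei lie at or below 10.96 per 10000, and 6530403H02Rik rises above 53.3 CPM only to the right of the line.

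Depth bore on some shares. Over the 25 AON projection neurons, the Meg3 share had a Pearson r of 0.29 and a Spearman rho of 0.38 with log10 UMIs, and the Snhg11 share 0.45 and 0.45. Over the 22 without glial markers, the Meg3 share had a Pearson r of 0.17 and a Spearman rho of 0.39 with log10 UMIs, and the Snhg11 share 0.46 and 0.35. Among the 15 of them with at least 10000 UMIs these were 0.72 and 0.85 for Meg3 and -0.41 and -0.36 for Snhg11, so the sign for Snhg11 turned with the depth minimum. Over the 59 pPCx projection neurons these values were -0.09 and -0.04 for Meg3 and -0.31 and -0.39 for Malat1. The nuclei of each set share a library, and the values are descriptive.

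Other genes of the members' loci were counted whole. Of 8 genes listed for the imprinted Dlk1-Dio3 region 6 matched a row and 4 could be compared in the AON library. Of these, 1 (Meg3) was at least 2-fold higher in projection neurons and 1 (Begain, 6 against 18 UMIs) at least 2-fold lower. Over all genes compared, 16.5% were higher and 16.8% lower by that measure. Rtl1, a retrotransposon-derived gene opposite microRNA genes, had 87 and 50 UMIs, and Mirg, a microRNA host, had 164 and 101, which put them 1.98-fold (1.38 to 2.86) and 1.85-fold (1.43 to 2.39) higher. Both were at 0 in astrocyte-marker nuclei. The median log2 ratio over the 4 genes was 0.93, against -0.05 for all genes.

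For the Snhg14 region, the imprinted Prader-Willi and Angelman locus, 6 of 8 listed genes matched and 3 could be compared. Ube3a, a ubiquitin ligase whose gene lies opposite Snhg14, was at 1739.7 CPM in AON projection neurons, 1046 in GABAergic nuclei and 2488 in pPCx projection neurons, and it was the second most similar gene to Meg3 over nuclei, with r of 0.87. Snrpn, a spliceosome protein gene, was at 83.2, 52.7 and 145 CPM. Neither passed 2-fold between the classes, with Ube3a 1.66-fold (1.55 to 1.78) and Snrpn 1.58-fold (1.14 to 2.20) higher in projection neurons. Ndn, 1 gene of the list, was more than 2-fold lower, against 16.8% of all genes compared. It had 4 and 10 UMIs, and the interval of its ratio (0.104 to 1.58) holds 1. No gene of the list was at least 2-fold higher, against 16.5% of all genes compared.

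All 6 listed Dlx genes, Dlx6os1 among them, were at least 2-fold lower in AON projection neurons than in GABAergic nuclei, against 16.8% of all genes compared. This contrast entered the choice of Dlx6os1. Dlx1 had 2 and 94 UMIs, Dlx5 had 1 and 24, Dlx6 had 0 and 38, and the noncoding Dlx1as had 3 and 100. Dlx2 had 2 and 8, and the interval of its ratio (0.0294 to 1.43) holds 1. It is not given in the sources used here whether reads over the shared span of Dlx6 and Dlx6os1 were counted by strand.

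Of 41 other long noncoding RNAs listed, 24 matched a row and 22 could be compared in the AON library. Of these, 3 were at least 2-fold higher in projection neurons (Pantr1, Epb41l4aos and Lhx1os) and 6 at least 2-fold lower (Snhg6, Mir9-3hg, Ftx, C130071C03Rik, Gm42418 and Dlx1as), against 16.5% and 16.8% of all genes compared. Lhx1os had 19 UMIs in projection neurons and 0 in GABAergic nuclei, and Pantr1 had 44 and 10. The median log2 ratio was -0.03. Neat1, the RNA that scaffolds paraspeckles and the neighbour of Malat1, was at 4.47 CPM in projection neurons, 5.51 CPM in GABAergic nuclei and 121 CPM in astrocyte-marker nuclei. Between AON and pPCx projection neurons 20 could be compared, with 4 at least 2-fold higher and 2 at least 2-fold lower in the AON, against 8.51% and 12.4% of all genes compared.

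The remaining most similar genes had lower likeness. Miat was most like Scube1 (r 0.77) and Gm42303 (0.73), Rmst most like Mid1 (0.57) and Pard3b (0.50), and Malat1 most like Phlpp1 (0.55) and Enpp2 (0.52). The second gene was Brinp1 for Snhg11 (0.82) and Hs6st2 for Dlx6os1 (0.78). Over all 165 kept nuclei, Gas7 took the place of Enpp2 for Malat1 and Erc2 that of Brinp1 for Snhg11.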

How the data were processed

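UMI count tables (counts, unnormalized) were deposited by the authors for 2 libraries of sorted olfactory bulb nuclei; the matrix headers name Cell Ranger 3.1.0, and the genome build is not given in the sources used here for these mouse tables. Gene coordinates are those of GENCODE M21 (GRCm38). Nuclei with under 1000 genes were left out; none exceeded 5% mitochondrial UMIs. No doublet caller was run, given 102 and 63 nuclei. Shares were summed UMIs over class totals, with exact Poisson or Clopper-Pearson 95% intervals and exact conditional intervals for ratios; log2 ratios had 0.5 UMI added. With 1 library per group no test between groups was possible and none was made. Whether the counting used strand is not given; overlaps on the other strand are Gm26906 (Meg3), Gm26953 (Miat), Gm26700 (Rmst) and Dlx6 (Dlx6os1), and those values are uncertain to that extent.

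The members, gene lists and tests were chosen with earlier results of these data known. Named genes were all members, the 2 genes most correlated with each among genes with at least 300 UMIs, and the listed locus genes; genes singled out within lists were picked after their values were seen. The level of 1 neuron marker, and with it the sum of that list, is not reported here. In addition, 13 alternatives were tried, of which 2 were chosen after seeing the data. The first left out projection neurons with over 10 times more glial than projection neuron marker UMIs. The second left out astrocyte-marker and oligodendrocyte-marker nuclei with more GABAergic than glial marker UMIs. The code for ratios and their intervals was checked on simulated counts with known folds. Python 3.11.15, numpy 2.4.6, scipy 1.17.1, pandas 2.3.3 and matplotlib 3.10.9 were used.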

Additional observations from a re-analysis of the deposited data

Results flagged for a closer look

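The barcodes below 1000 genes, which enter none of the shares above, also held UMIs of the members above the limit that a count of 0 allows. In the AON library 86 such barcodes with a median depth of 775 UMIs held 651 UMIs of Meg3, 2974 of Malat1, 10 of Miat, 333 of Snhg11 and 5 of Dlx6os1. In CPM this was 6877 for Meg3 (6359 to 7426), against 5586 in the kept AON nuclei, and 31416 for Malat1, against 53185. In the pPCx library 11 such barcodes with a median depth of 861 held 135 UMIs of Meg3, 513 of Malat1, 40 of Snhg11 and 6 of Rmst, the last all in 1 barcode. Rmst there was at 562 CPM (206 to 1223), against 62.0 CPM in the kept pPCx nuclei.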

How the results depend on the processing

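The summed share of the 7 RNAs moved by more than its counting interval under some settings. In AON projection neurons it was 5.47% and became 5.24% without nuclei over 3 times the median depth and 5.24% with equal weight per nucleus, 5.70% over UMIs without Malat1, 5.79% over UMIs without all members, 5.38% with 3 or more projection marker UMIs and 5.37% without glial-marker nuclei. In AON GABAergic nuclei 5.46% became 5.52% with equal weight, 5.74% without Malat1 and 5.77% without all members in the denominator, and in pPCx projection neurons 7.54% became 7.75%, 7.97% and 8.15%. The values over UMIs without Malat1 or without all members rise by construction, because those UMIs leave the denominator alone. They say nothing on how stable the share is. The 4 counts of members past 2-fold stayed within 1.5 times under each of the 12 alternatives that bear on them (48 values). Of 13 member ratios none changed direction; 6530403H02Rik between AON classes, log2 0.72, reached 1.12 without nuclei over 3 times the median depth. The log2 ratio of Rmst between AON projection and GABAergic nuclei was -3.89, -2.11 with equal weight per nucleus and -7.75 without glial-marker nuclei, and between the libraries -3.26, -1.63 and -7.12. Meg3 between AON classes ranged from 1.22 to 1.54. The log2 ratio of Meg3 against astrocyte-marker nuclei became higher without the mixed-marker nucleus, at 9.20 in AON projection neurons and 7.71 in GABAergic nuclei, as did that of Snhg11, at 9.06 (from 6.49) and 7.65 (from 5.07). No paired analysis was possible because the data analysed here hold 1 library for an injection site, so none could be left out. Depth limits the rarest members: 6 or fewer UMIs carried 6530403H02Rik and Dlx6os1 in AON projection neurons.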
